A study of Mus musculus with 10 samples.

Results

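The RNA exosome is the main 3′ to 5′ RNA-degrading machine of animal cells, and the levels of 10 mouse genes that encode its subunits were followed in developing cortex in which Rnu11, the gene of the U11 small nuclear RNA, was targeted. The genes were Exosc1, Exosc2, Exosc3, Exosc4, Exosc5, Exosc7, Exosc8, Exosc9, Exosc10 and Dis3, chosen by name from the 38803 gene symbols of the data, by a rule that uses no measured value, though with earlier results of these data known. The remaining ring subunit was not analysed here. Exosc1 and Exosc2 are known to hold a minor intron.

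RNA sequencing of the dorsal telencephalon, the tissue that forms the cerebral cortex, was compared at embryonic day 12 between 5 mutant libraries (Rnu11Flx/Flx::Emx1-Cre+/-, both copies of Rnu11 floxed) and 5 control libraries (Rnu11WT/Flx::Emx1-cre+/-, 1 copy floxed). All embryos were of the C57/Bl6 - 129 SvJ background, and both groups carried Emx1-Cre, which is active in dorsal telencephalic progenitors and their descendants, so recombination of the single floxed copy is possible in the controls as well, and blood, vessel and meningeal cells in the tissue were not targeted. Values are FPKM, fragments per length of transcript and depth of library, so levels of different genes can be set side by side. The length used for each gene is not stated, so the order of genes by level is less certain. Whether each library stands for a separate embryo is not stated in the labels, so p-values measure the spread between these libraries, and in bulk tissue fewer cells of a type and less RNA per cell cannot be told apart.

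As background, the exosome consists of a barrel through which RNA is threaded. A ring of RNase PH-like proteins (Exosc4, Exosc5, Exosc7, Exosc8 and Exosc9 among them), which has no catalytic activity of its own in animals, carries a cap of S1 and KH domain proteins (Exosc1, Exosc2 and Exosc3), and the nucleases Dis3 and Exosc10 do the cutting. The complex trims ribosomal and small nucleolar RNA precursors, removes short-lived nuclear transcripts and degrades messenger RNA in the cytoplasm. In humans, inherited variants of EXOSC3, EXOSC8 and EXOSC9 are known causes of pontocerebellar hypoplasia. Minor introns are a rare class removed by a separate spliceosome in which the U11 particle recognises the 5′ end of the intron.

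Intron ends are shown because the U11 particle acts at the first bases of minor introns and its partner U12 at the branch point near the last. The sequences of 16 of the 106 introns of 60 bases or more that the GENCODE M21 annotation of GRCm38 gives for the protein-coding transcripts of these genes could be read, since they lie within an exon of another annotated transcript, and 6 of the 10 genes had at least 1 such intron. An intron was searched on the strand of its gene for ATATCC or GTATCC at its first 6 bases, the letters with which minor introns typically begin, and for CCTTAAC, typical of their branch point, anywhere in its last 40 bases. One intron of Exosc5 held both motifs and one of Exosc2 held the first. Among all 13130 introns read in the same way in the mouse annotation, 0.655% held the first motif, 0.373% the second and 0.114% both, which is 15 introns. The Exosc5 intron has 972 bases on the plus strand, with its first 20 bases at chr7:25664449-25664468 and its last 40 at chr7:25665381-25665420. The Exosc2 intron has 763 bases on the plus strand, with its ends at chr2:31675905-31675924 and chr2:31676628-31676667. An intron of Exosc8 on the minus strand, with its first bases at chr3:54731961-54731980 and its last at chr3:54731172-54731211, is shown beside them as one that held neither motif. Capitals mark the motifs, and each sequence is written 5′ to 3′ along its gene.
Exosc5 intron start: GTATCCtttcccagccctct
Exosc5 intron end: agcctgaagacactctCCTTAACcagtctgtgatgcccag
Exosc2 intron start: GTATCCtgcacctcattctc
Exosc2 intron end: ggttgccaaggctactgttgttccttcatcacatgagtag
Exosc8 intron start: gtaagagcagcctgcgcttt
Exosc8 intron end: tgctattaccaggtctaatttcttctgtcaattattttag
A motif match is a description of these letters and does not show which spliceosome removes the intron. No intron of Exosc1 was among those read.

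The targeted gene was lower in every mutant library than in any control. Rnu11 lay at 712, 473, 511, 1344 and 1421 FPKM in mutants 1 to 5, against 2386, 2031, 2817, 1913 and 2266 FPKM in controls 1 to 5, and the mutant mean was 39.1% of the control mean (exact two-sided permutation test of 5 against 5, p = 0.00794, the smallest it can give). In the limma fit used for the subunits Rnu11 had a log2 difference of -1.50 and did not pass (adjusted p = 0.118). The libraries fell into 2 sets that crossed genotype. The second set, mutants 4 and 5 with control 5, had 487 to 688 FPKM of the U12 small nuclear RNA Rnu12, and the first set, mutants 1 to 3 with controls 1 to 4, had 5.91 to 33.8 FPKM. The mutant mean of Rnu11 was 24.7% of the control mean in the first set and 61.0% of control 5 in the second, so values per set below compare mutants with unlike Rnu11 levels. Depth, roughly estimated from the FPKM step of a single fragment, ran from 9710000 to 20800000 fragments, and a fragment in a transcript of 2000 bases was then worth 0.0241 to 0.0515 FPKM. The 7 dorsal telencephalic markers summed to 157 to 181 FPKM in mutants and 129 to 193 FPKM in controls. Embryonic globins and other erythroid markers were also high, with sums of 3860 to 8334 FPKM in mutants and 3236 to 7820 FPKM in controls, while ventral telencephalic markers summed to 8.76 to 23.3 FPKM in mutants and 5.89 to 57.9 FPKM in controls, endothelial markers to 24.1 to 37.5 and 17.5 to 29.3 FPKM, microglial markers to 6.84 to 21.0 and 5.99 to 10.3 FPKM, mesenchymal markers to 12.1 to 42.1 and 11.3 to 36.6 FPKM, and early neuronal markers to 236 to 389 and 193 to 312 FPKM. The part of other cell types in the results below was not tested.

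All 10 exosome subunits were expressed in both groups, and none passed the test for a difference between them. Limma on log2(FPKM + 1), fitted to the 13522 genes that reached 1 FPKM in 5 or more libraries and adjusted by the Benjamini-Hochberg method, called 0 of the 10 at a threshold of 0.05, where 0.155% of all tested genes were called. Mutant and control values overlapped for each of the 10, where 1.52% of all tested genes were higher and 0.377% lower in mutants without overlap. The adjusted p of the members ran from 0.546 for Exosc10 to 0.989 for Exosc8. At an unadjusted p under 0.05 there was 1 member, Exosc10, where 8.76% of all tested genes fell under it. Log2 differences, mutant minus control, ran from -0.28 for Exosc5 to 0.28 for Exosc10, with a median of 0.08 beside 0.11 for all tested genes. Of the 10 members 8 lay above 0, where 75.7% of all tested genes did, and 4 lay above the median of all genes. After each library was rescaled to a common median ratio over the tested genes, which moved that median to 0.00, Exosc4, Exosc7, Exosc8 and Dis3 changed sign, so 4 of the 10 lay above 0 (limma called 0 of the 10, and 0.222% of all tested genes). The 95% intervals of the differences reached down to -0.64, for Exosc5, and up to 0.54, for Exosc10, so changes of that size are within what these libraries allow.

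**Figure D1:**
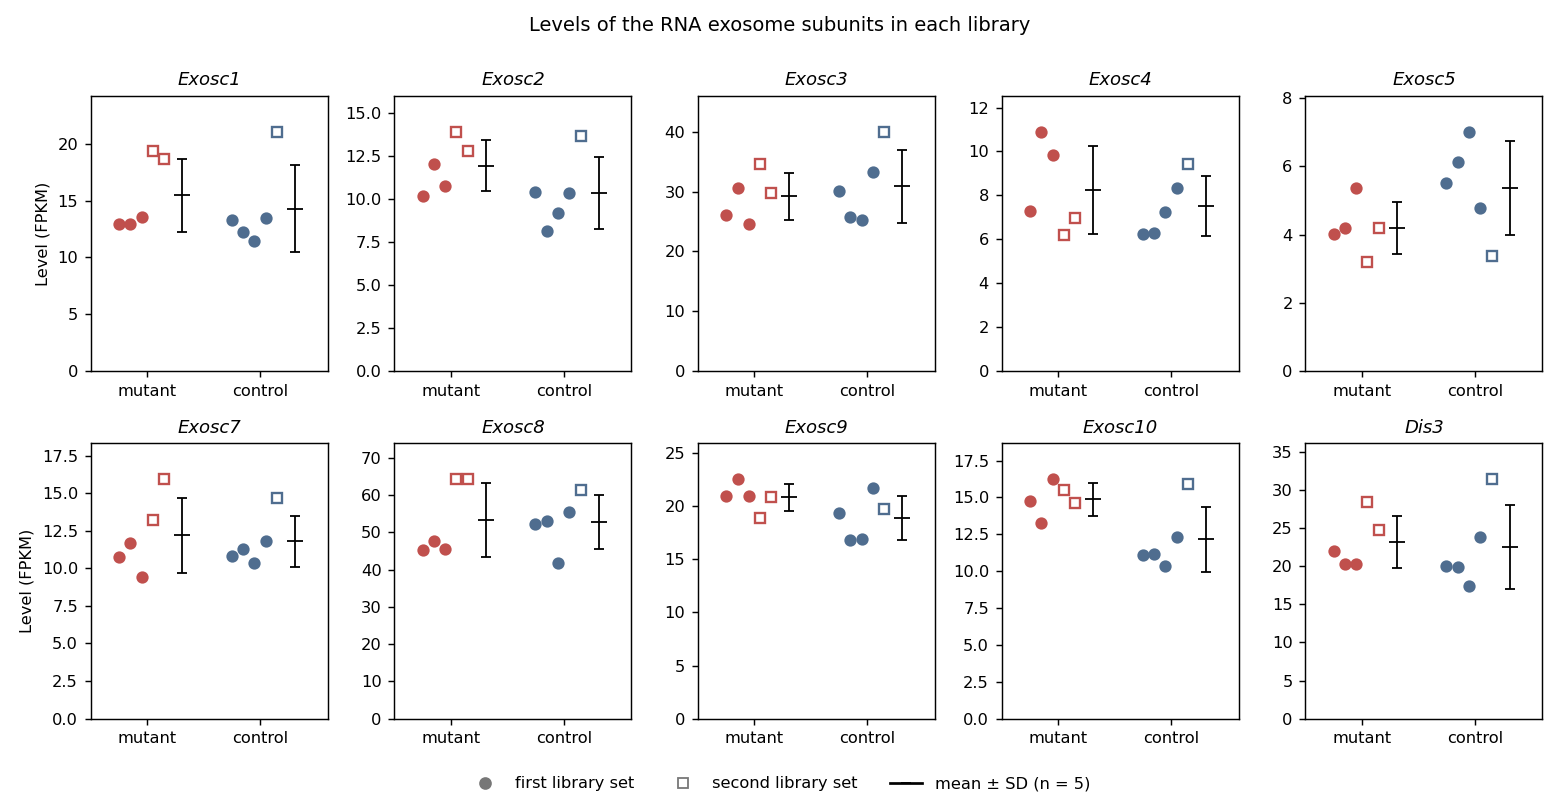
Level in FPKM of each RNA exosome subunit in each mutant and control library, with filled circles for the first and open squares for the second library set and bars for the mean ± SD of 5 libraries. Mutant and control points overlap for each of the 10 genes, and the open squares stand above the filled circles of both groups for Exosc1, Exosc2, Exosc7, Exosc8 and Dis3.

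The subunit genes spanned about an order of magnitude in level. Exosc8 was the highest, at a mean of 53.4 FPKM in mutants and 52.8 FPKM in controls, and Exosc5 the lowest, at 4.20 FPKM in mutants and 5.36 FPKM in controls. Between them, in falling order, came Exosc3, Dis3, Exosc9, Exosc1, Exosc10, Exosc7, Exosc2 and Exosc4, and the order of the means was the same in both groups. Neighbours in this order overlapped in range within each group, except that Exosc8 lay above Exosc3 in both groups (45.3 to 64.3 against 24.7 to 34.7 FPKM in mutants, and 41.8 to 61.4 against 25.2 to 39.99 FPKM in controls) and Exosc4 above Exosc5 in mutants (6.21 to 10.9 against 3.20 to 5.37 FPKM). The spread over all 10 libraries, as SD over mean, was smallest for Exosc9, at 9.67%, and largest for Exosc5, at 25.6%. The summed level of the 10 genes was 194 ± 20.3 FPKM in mutants and 187 ± 28.4 FPKM in controls (SD, n = 5 each).

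Of the cap genes, Exosc1 and Exosc2 are the subunits known for minor introns, and neither had a lower mean in mutants over all 10 libraries. Exosc1 (chromosome 19, 41922292 to 41933423, GRCm38) encodes the cap protein known from yeast as Csl4. It had 12.9, 13.0, 13.6, 19.3 and 18.6 FPKM in mutants 1 to 5, against 13.3, 12.3, 11.5, 13.5 and 21.1 FPKM in controls 1 to 5. The groups overlapped throughout, and the 3 highest values were those of the second library set, in both groups. In the first set the mutant mean was 104% of the control mean, and in the second it was 90.1% of control 5. After rescaling to a common median ratio the first-set means were 12.4 in mutants and 13.6 in controls. Over all libraries as deposited the log2 difference was 0.12 (SE 0.17, 95% interval -0.26 to 0.49; limma, adjusted p = 0.855).

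Exosc2 (chromosome 2, 31670715 to 31681349), the cap protein known from yeast as Rrp4, had 10.2, 12.1, 10.8, 13.9 and 12.8 FPKM in mutants, against 10.4, 8.15, 9.21, 10.4 and 13.7 FPKM in controls. Mutants lay mostly above the controls other than control 5, with overlap. The mutant mean was 116% of the control mean in the first set and 97.7% of control 5 in the second. Rescaled to a common median ratio, the first-set means were 10.4 in mutants and 10.2 in controls. Over all libraries as deposited the log2 difference was 0.20 (SE 0.14, 95% interval -0.10 to 0.50; limma, adjusted p = 0.686), and on rescaled values 0.09 (adjusted p = 0.925). FPKM of a whole gene does not tell spliced from unspliced transcripts, so these levels do not measure retention of the minor introns.

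Exosc3 (chromosome 4, 45316613 to 45342732), the cap protein known from yeast as Rrp40, was the second most abundant subunit transcript. It had 26.1, 30.7, 24.7, 34.7 and 29.8 FPKM in mutants, against 30.1, 25.7, 25.2, 33.3 and 39.99 FPKM in controls. The groups overlapped, with a log2 difference of -0.07 (SE 0.14; limma, adjusted p = 0.904). Rescaled to a common median ratio, the difference was -0.19 (adjusted p = 0.731). With rescaling and the library set as a term, an alternative added after the data were seen, it was -0.24. Its adjusted p of 0.212 was the lowest of the members in that fit.

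Among the ring genes, Exosc5, which holds the 1 member intron read with both motifs, had the lowest log2 difference of the 10 members. Only 16 of the 106 introns of the members were read. The Exosc5 intron lies within an exon of another annotated transcript, so RNA that keeps it may count toward the Exosc5 level. Exosc5 (chromosome 7, 25659164 to 25671368) had 4.01, 4.20, 5.37, 3.20 and 4.19 FPKM in mutants, against 5.53, 6.13, 7.01, 4.77 and 3.38 FPKM in controls. Controls 1 to 3 lay above every mutant, while control 5 lay below 4 of the 5 mutants, so the groups overlapped. The means were 4.20 ± 0.774 FPKM in mutants and 5.36 ± 1.38 FPKM in controls (SD, n = 5 each), or 78.2% of control. The log2 difference was -0.28 (SE 0.17, 95% interval -0.64 to 0.09; limma, adjusted p = 0.649; exact two-sided permutation test, p = 0.175). In the first set the mutant mean was 77.3% of the control mean, and in the second it was 109% of control 5.

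The 15 genes whose readable introns hold both motifs, Exosc5 among them, lay on both sides of 0. All were tested, and limma called 1 lower and 0 higher, where it called 0.0666% of all tested genes lower. Of the 15, 7 lay below 0, where 24.3% of all tested genes did, 10 lay below the median of all tested genes, and their median log2 difference was 0.02. The called gene was Spc24, of the kinetochore, at -1.28 (adjusted p = 0.000375), named after its value was seen. The 15 genes are those whose introns could be read and not a full list of minor-intron genes. Each such intron lies within an exon of another annotated transcript, so RNA that keeps it may count toward the level of the gene.

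Exosc4 (chromosome 15, 76327397 to 76330677), another ring gene, had 7.27, 10.9, 9.84, 6.21 and 6.99 FPKM in mutants, against 6.25, 6.31, 7.25, 8.36 and 9.42 FPKM in controls. The library sets ran in opposite directions here: the mutant mean was 133% of the control mean in the first set and 70.0% of control 5 in the second. That difference between sets was not tested, and over all libraries the log2 difference was 0.11 (SE 0.16; limma, adjusted p = 0.860).

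Exosc8 (chromosome 3, 54728678 to 54735393), the most abundant subunit transcript, had 45.3, 47.8, 45.6, 64.2 and 64.3 FPKM in mutants, against 52.1, 53.1, 41.8, 55.4 and 61.4 FPKM in controls. The log2 difference was 0.01 (SE 0.14, 95% interval -0.30 to 0.32; limma, adjusted p = 0.989). The lower 3 mutants and the higher 2 mutants were those of the first and the second library set, with the controls of the first set between or just below them.

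Exosc7 (chromosome 9, 123113215 to 123136129) had 10.8, 11.7, 9.45, 13.2 and 15.9 FPKM in mutants, against 10.8, 11.3, 10.3, 11.8 and 14.7 FPKM in controls. The groups overlapped throughout (log2 difference 0.04, SE 0.14; limma, adjusted p = 0.956). Exosc9 (chromosome 3, 36552606 to 36565727) had 21.0, 22.5, 20.9, 18.9 and 20.8 FPKM in mutants, against 19.4, 16.8, 16.9, 21.7 and 19.8 FPKM in controls. Its log2 difference was 0.14 (SE 0.10; limma, adjusted p = 0.708), and it was the subunit that varied least. Its exons share 510 bases with those of Ccna2, the cyclin A2 gene on the opposite strand, which stood at 100 to 140 FPKM in mutants and 86.0 to 154 FPKM in controls. No source used here tells whether the counting took account of strand, so the level of Exosc9 is less certain.

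Of the nuclease genes, Exosc10 came nearest to a difference between the groups. Exosc10 (chromosome 4, 148558429 to 148582401) encodes the nuclear nuclease known from yeast as Rrp6. It had 14.8, 13.3, 16.2, 15.5 and 14.6 FPKM in mutants, against 11.1, 11.1, 10.4, 12.3 and 15.9 FPKM in controls. Every mutant lay above controls 1 to 4, and control 5 lay above 4 of the 5 mutants. The means were 14.9 ± 1.11 FPKM in mutants and 12.2 ± 2.20 FPKM in controls (SD, n = 5 each), or 122% of control.

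The log2 difference of Exosc10 was 0.28 (SE 0.12, 95% interval 0.02 to 0.54), with an unadjusted p of 0.0359 and an adjusted p of 0.546 (limma), and the exact two-sided permutation test, unadjusted over the 10 members, gave p = 0.0476. In the first library set the 3 mutants did not overlap the 4 controls and the mutant mean was 132% of the control mean (limma within that set, which called 0.747% of all tested genes, adjusted p = 0.162). Exosc10 was the 1 of 10 members without overlap there, where 16.7% of all tested genes were higher without overlap in mutants. After median-ratio rescaling it was still the 1 member higher without overlap in the first set, where 6.67% of all tested genes were. Exosc7, at 9.03 to 11.0 in mutants and 11.2 to 12.5 in controls on the rescaled FPKM scale, and Exosc8, at 42.4 to 45.1 and 48.5 to 58.8, were then lower in first-set mutants without overlap, where 8.36% of all tested genes were. In the second set the 2 mutants, at 15.5 and 14.6 FPKM, lay below control 5, at 15.9 FPKM, and the mutant mean was 94.7% of it. Leaving out any 1 library kept the difference between 0.23 and 0.38, and the unadjusted p was above 0.05 without control 1, 2 or 3 or without mutant 1, 3, 4 or 5, at most 0.0859. Without control 5 the log2 difference was 0.38 (adjusted p = 0.0974), and without controls 4 and 5 it was 0.42 and passed (adjusted p = 0.0415), in a fit that called 5.18% of all tested genes. Control 5 is the only control of the second set, so both fits set mutants 4 and 5 against first-set controls alone. Genotype and library set cannot be fully told apart in them. With all 10 libraries rescaled to a common median ratio, the log2 difference of Exosc10 was 0.17 (adjusted p = 0.679).

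Dis3 (chromosome 14, 99075206 to 99099770) encodes the nuclease bound at the exit of the barrel, with exo- and endonuclease activity. It had 22.0, 20.4, 20.3, 28.4 and 24.8 FPKM in mutants, against 20.1, 19.9, 17.4, 23.8 and 31.4 FPKM in controls. The groups overlapped, with the largest value in control 5 (log2 difference 0.06, SE 0.16; limma, adjusted p = 0.931). In FPKM as deposited the 2 nuclease genes thus differed in the position of their first-set libraries, with Dis3 mutants inside the range of the controls and Exosc10 mutants above it. Rescaled to a common median ratio, Dis3 mutants 2 and 3, at 19.2 and 19.4, lay below the first-set controls, at 20.2 to 22.5. Mutant 1, at 20.6, lay inside that range. The difference between the 2 genes was not tested.

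**Figure D2:**
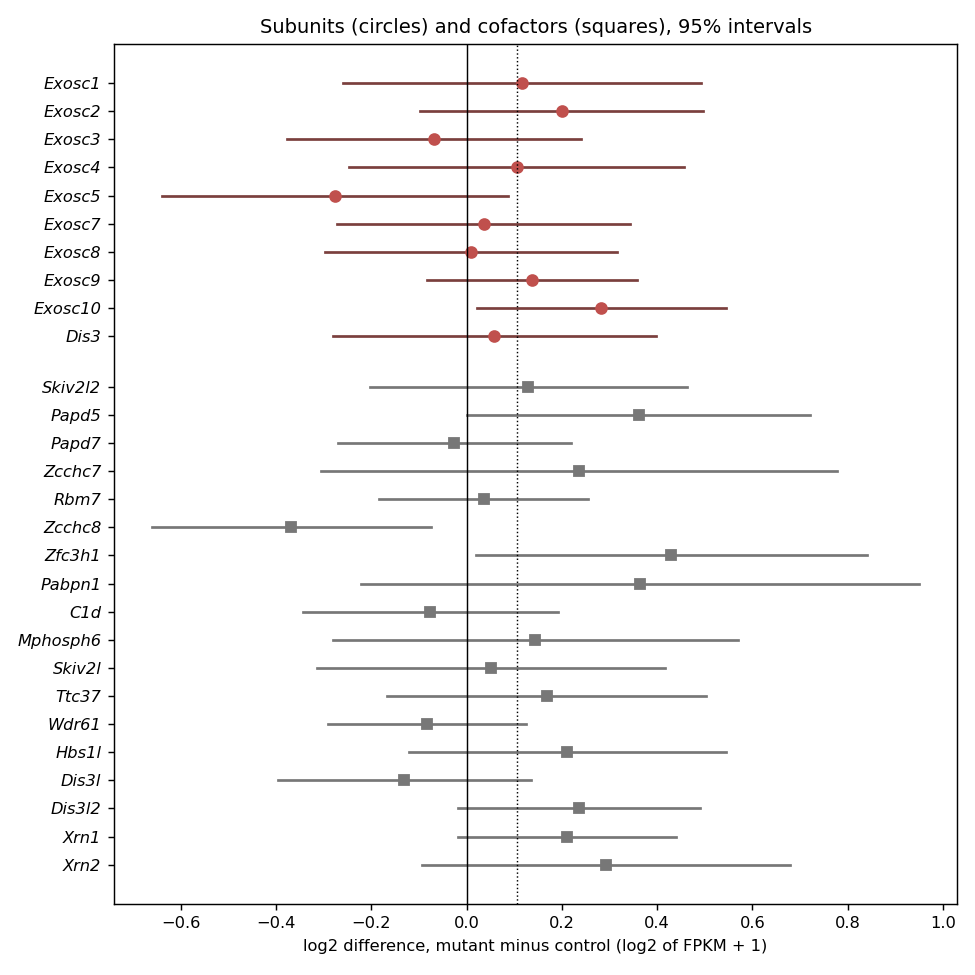
Log2 difference of log2(FPKM + 1), mutant minus control, for the 10 subunits (circles) and 18 cofactors and comparators (squares), with 95% intervals from limma. The solid line marks 0 and the dotted line the median of all tested genes, at 0.11. The intervals of 9 of the 10 subunits include 0, and that of Exosc10 lies just above it.

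The share of each subunit within the summed 10 does not depend on how a library is scaled. Exosc10 made up 7.75 ± 1.02% of the sum in mutants and 6.50 ± 0.274% in controls, and Exosc5 2.21 ± 0.569% and 3.01 ± 1.14% (SD, n = 5 each, no test). Exosc10 shares ran from 6.87 to 9.18% in mutants and from 6.19 to 6.89% in controls, so they overlapped by mutant 5, at 6.87%, and control 5, at 6.89%. Exosc3 held 15.1 ± 1.13% in mutants and 16.5 ± 0.919% in controls, Exosc8 27.4 ± 2.24% and 28.4 ± 1.88%, and Exosc2 6.16 ± 0.263% and 5.54 ± 0.493%. The groups overlapped for the share of each of the 10 genes.

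Several subunit transcripts differed between the library sets, in both genotypes. Exosc1 in the second set lay between 18.6 and 21.1 FPKM, and in the first between 11.5 and 13.6 FPKM, a ratio of means of 1.53. Dis3 in the second set lay between 24.8 and 31.4 FPKM, and in the first between 17.4 and 23.8 FPKM. Exosc8 lay between 61.4 and 64.3 FPKM in second-set libraries and between 41.8 and 55.4 FPKM in first-set libraries. In all, 5 of the 10 members were higher in the second set without overlap, Exosc1, Exosc2, Exosc7, Exosc8 and Dis3, where 15.5% of all tested genes were. After the same rescaling, 4 of the 10 were, which left out Exosc8, against 13.0% of all tested genes. This comparison was not tested, since the sets were defined from these libraries.

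Exosc5 ran the other way, with 3.20 to 4.19 FPKM in second-set libraries and 4.01 to 7.01 FPKM in first-set libraries, which overlap (ratio of means 0.679), and Exosc9 did not separate the sets (ratio 0.997). Exosc4 lay at a ratio of 0.939, Exosc2 at 1.32, Exosc3 at 1.24, Exosc7 at 1.34, and Exosc10 at 1.20. Genes of G2 and M phase moved with the sets too: Mki67, Top2a, Ccnb1, Cdc20, Plk1 and Aurkb had sums of 732 to 798 FPKM in second-set libraries and 454 to 646 FPKM in first-set libraries. Mesenchymal and meningeal markers ran the other way, with sums of 11.3 to 12.3 FPKM in second-set libraries and 15.0 to 42.1 FPKM in first-set libraries. The part of either in the subunit levels was not tested. With the set as a second term in the limma fit, 0 of the 10 members passed, where 0.547% of all tested genes did, and log2 differences were 0.24 for Exosc10 (adjusted p = 0.376), -0.20 for Exosc5 (0.562), 0.13 for Exosc2 (0.618) and 0.00 for Exosc1 (0.998).

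**Figure D3:**
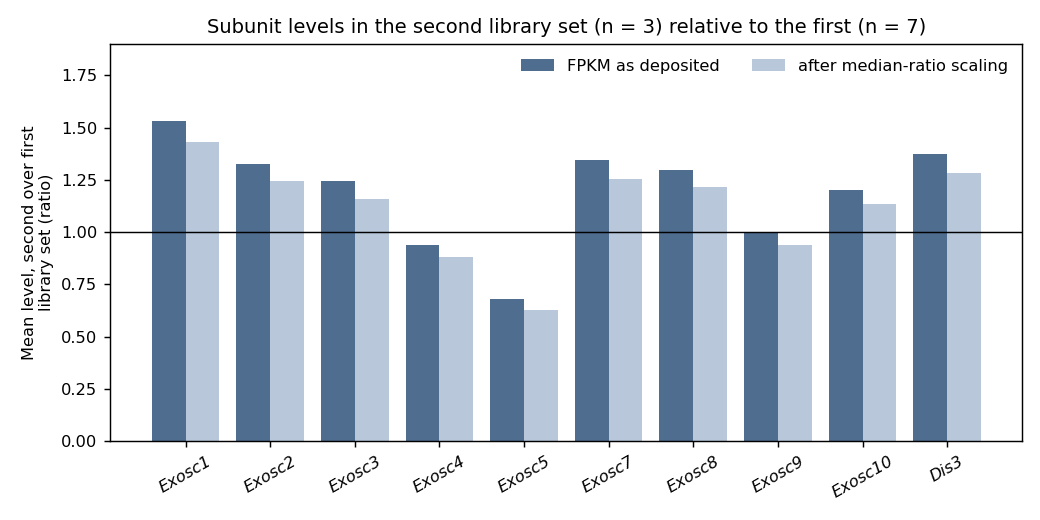
Ratio of the mean level of each subunit in the second library set (mutants 4 and 5 with control 5) to that in the first (mutants 1 to 3 with controls 1 to 4), from FPKM as deposited and after median-ratio scaling. Exosc1 stands highest, at 1.53, and Exosc5 lowest, at 0.679. The line marks a ratio of 1.

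The genes whose pattern over the 10 libraries was most like that of Exosc1 were Smc6, a subunit of a chromosome maintenance complex (Pearson r = 0.993), Casp8ap2 (0.992), and Ssb, the La RNA-binding protein (0.991). Those most like Exosc2 were Ahsa1, a co-chaperone of Hsp90 (0.979), Golga5, a Golgi protein (0.978), and Dmrta1, a transcription factor (0.973). The highest values were picked from all tested genes and the 10 libraries fall into the 2 sets, so these r are a description only. Over the 7 libraries of the first set they were 0.902, 0.940 and 0.872 for Exosc1, and 0.955, 0.955 and 0.925 for Exosc2.

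The cofactors that bring RNA to the exosome, and other nucleases set beside them, were likewise without a call. Of 18 genes, comprising the TRAMP, NEXT, PAXT and SKI complexes, nuclear partners, other nucleases of the Dis3 family and the 5′ to 3′ nucleases Xrn1 and Xrn2, 0 passed, where 0.155% of all tested genes did, and 3 had an unadjusted p under 0.05 (limma), where 8.76% of all tested genes did. Of the 18, 13 lay above 0, where 75.7% of all tested genes did, 11 lay above the median of all tested genes, and their median log2 difference was 0.16. Adjusted p-values ran from 0.463 to 0.959.

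Zcchc8, the scaffold of the NEXT complex that targets short-lived nuclear RNA to the exosome, had the smallest p of the cofactors and lay lower in mutants. It had 9.28, 8.30, 8.50, 10.4 and 9.43 FPKM in mutants, against 10.6, 10.9, 10.2, 13.4 and 16.4 FPKM in controls. Mutant 4 alone overlapped the controls, above control 3 (log2 difference -0.37, SE 0.13; limma, adjusted p = 0.463; exact two-sided permutation test, unadjusted, p = 0.0159). The difference kept its sign in both sets, with mutant means at 77.2% of control in the first and 60.4% of control 5 in the second.

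Rescaling to a common median ratio left no overlap between the groups for Zcchc8, at 7.83 to 10.1 in mutants and 11.6 to 15.0 in controls on the rescaled FPKM scale, where 1.17% of all tested genes were lower and 0.917% higher in mutants without overlap. The log2 difference was then -0.48 (adjusted p = 0.0951), and with the library set as a term on rescaled values, an alternative added after the data were seen, it was -0.53 and passed (adjusted p = 0.00404), in a fit that called 0.658% of all tested genes. Zcchc8 did not pass in the planned fits on values as deposited with the set as a term (-0.43, limma, adjusted p = 0.125) or in the first set alone (-0.33, 0.201). Nor did it pass after quantile normalization (-0.49, 0.0762). Rbm7, the RNA-binding partner of Zcchc8 in the NEXT complex, lay at a log2 difference of 0.04 (adjusted p = 0.935), and the helicase gene Skiv2l2, also known as Mtrex, which both NEXT and TRAMP use, at 0.13 (adjusted p = 0.822).

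For the next 3 of these 18 genes by p the mutant mean was above the control mean, and none passed. Zfc3h1, the scaffold of the PAXT complex that acts on polyadenylated nuclear RNA, had 9.92, 9.16, 8.03, 9.76 and 12.1 FPKM in mutants, against 7.91, 5.26, 4.50, 8.16 and 10.3 FPKM in controls (log2 difference 0.43, SE 0.19; limma, adjusted p = 0.562). Papd5, the poly(A) polymerase of TRAMP, had 6.46, 5.72, 5.16, 5.94 and 7.07 FPKM in mutants, against 3.94, 4.13, 3.11, 4.89 and 7.08 FPKM in controls (log2 difference 0.36, SE 0.17; limma, adjusted p = 0.568). Every Papd5 mutant value lay above controls 1 to 4 and below control 5. Dis3l2, a cytoplasmic nuclease that works without the ring, had 8.45, 8.49, 8.44, 7.95 and 7.78 FPKM in mutants, against 6.34, 6.10, 5.66, 8.27 and 8.13 FPKM in controls (log2 difference 0.24, SE 0.12; limma, adjusted p = 0.592). On values rescaled to a common median ratio, the log2 differences of Zfc3h1, Papd5 and Dis3l2 were smaller, at 0.32, 0.26 and 0.13 (limma, adjusted p = 0.671, 0.676 and 0.736). Without controls 4 and 5, Papd5, Dis3l2 and Hbs1l passed (adjusted p = 0.0415, 0.0417 and 0.0497), in the same fit that called 5.18% of all tested genes. That fit holds no control of the second library set, so genotype and library set cannot be fully told apart in it.

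**Figure D4:**
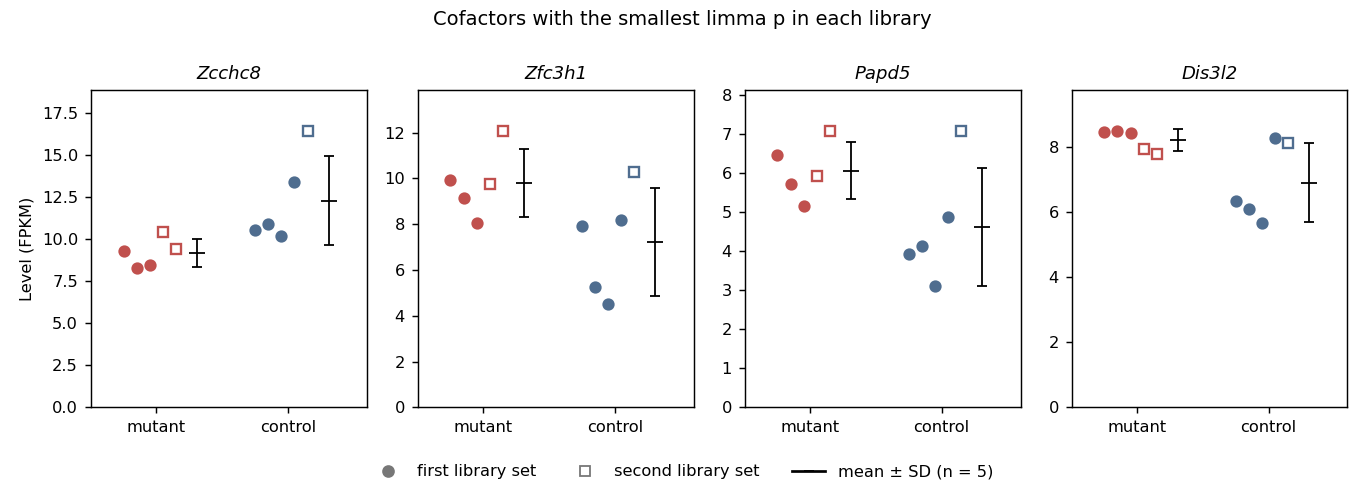
Level in FPKM of the 4 genes with the smallest limma p among the 18 cofactors and comparators, in each mutant and control library, drawn as in the plot of subunit levels. Zcchc8 mutants lie at 8.30 to 10.4 FPKM, mostly below the controls at 10.2 to 16.4 FPKM, while Zfc3h1, Papd5 and Dis3l2 mutants lie above the lower controls and overlap the higher ones.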

How the data were processed

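Total RNA was sequenced from 10 libraries, stranded and depleted of ribosomal RNA, per the labels' protocols. The authors deposited 1 list of FPKM values per library, and the submitters' processing notes name HISAT2 and the build GRCm38 (mm10). The program that computed FPKM, its annotation and its strand setting are not stated in those sources. FPKM as deposited keeps no counts, so depth was estimated roughly and counting intervals are left out. The test was limma 3.58.1, run in R 4.3.3 on log2(FPKM + 1) (intensity trend, robust moderation, genotype as the single term), for the 13522 genes that reached 1 FPKM in 5 or more libraries. Fold changes on this scale understate the change of low genes. The test was checked on simulated data with 50 genes changed by each fold, 200 in all, with folds set on the log2(FPKM + 1) scale. Each gene was drawn independently, without library sets, and changed genes were picked above a minimum mean level. In that setting the test recovered 44% of genes raised 1.5-fold, 80% raised 2-fold, 100% raised 4-fold and 38% lowered to 0.667, with 3 false calls. These shares may not carry over to the real libraries. Many changes of 1.5-fold would thus be missed. Tables and exact permutation tests used Python 3.11.15, pandas 2.3.3 and scipy 1.17.1, and plots matplotlib 3.10.9. Library sets were split at 100 FPKM of Rnu12. Gene positions and introns came from GENCODE M21, which may not be the authors' annotation.

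Named genes were the 10 members, Rnu11, the 4 of the 18 cofactors and comparators with the smallest p (none passed), and the 3 genes most like Exosc1 and Exosc2, leaving out predicted genes and pseudogenes. Rbm7, Skiv2l2, Hbs1l, Spc24, Rnu12 and Ccna2 were named outside this rule, with their values seen. The members and lists were chosen with earlier results of these data known. Exons of Exosc2, Exosc3, Exosc4, Exosc5, Exosc8, Exosc9 and Dis3 share 53 to 510 bases with a gene on the other strand, so those levels are less certain.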

Additional observations from a re-analysis of the deposited data

Results flagged for a closer look

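Exosc1 in control 5 stood far from the other controls. It lay at 21.1 FPKM, where the other 4 controls lay at 11.5 to 13.5 FPKM, and its gap to the nearest was 0.788 of the range of the group, above the critical value of 0.71 for 5 samples. Mutants 4 and 5, of the same library set, lay at 19.3 and 18.6 FPKM. It was the 1 of 30 groups of values examined for a sample that stands apart, and chance flags about 1 in 20.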

How the results depend on the processing

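Under 22 alternatives, 192 of 219 member values kept their direction and side of the threshold, 26 changed sign and 1 passed newly. The number of members called stayed at 0 except without controls 4 and 5, where it was 1 (Exosc10). In that fit 3 of the 18 cofactors and comparators and 700 of all tested genes were called. It leaves the second library set without a control, and 670 of the 700 genes were higher in mutants. Genes called over all tested genes, 21 in the fit reported, numbered 2 with no filter, 35 after quantile normalization, 11 without trend and robust moderation, 74 with the library set as a term, 101 in the first set alone, and 89 with rescaling and the set as a term, an alternative chosen after seeing the data, which called 1 cofactor (Zcchc8). The shares of the summed members, the overlap counts on rescaled values and the motif genes were also chosen after seeing the data. Genes called over all tested genes ran from 2 to 79 when 1 library was left out. Leaving out control 1, control 2, mutant 2 or mutant 3 gave 2. The counts without control 3, mutant 1, mutant 5, control 4, mutant 4 and control 5 were 4, 9, 10, 11, 26 and 79. Rescaling moved the median of all genes to 0.00, and the calls to 11 higher and 19 lower, beside 12 higher and 9 lower; quantile normalization gave 13 and 22.

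Signs turned for members near 0. After median-ratio scaling and after quantile normalization the log2 differences were -0.0032 and -0.015 for Exosc4, -0.078 and -0.089 for Exosc7, -0.11 and -0.067 for Exosc8, and -0.059 and -0.038 for Dis3. With the set as a term they were -0.045 for Exosc7, -0.069 for Exosc8 and -0.031 for Dis3, and in the first set alone -0.057 for Exosc7 and -0.12 for Exosc8. With both rescaling and the set they were -0.10 for Exosc1, -0.15 for Exosc7, -0.18 for Exosc8 and -0.13 for Dis3. Exosc3 was at 0.10 without controls 4 and 5, and at -0.19 and -0.16 after median-ratio scaling and after quantile normalization. Leaving out 1 library gave -0.13 to 0.027 for Exosc3, -0.059 to 0.11 for Exosc7, -0.070 to 0.066 for Exosc8 and -0.024 to 0.18 for Dis3; Exosc1 ran from 0.035 to 0.26, Exosc2 from 0.13 to 0.30, Exosc4 from 0.0073 to 0.19, Exosc5 from -0.40 to -0.19, Exosc9 from 0.098 to 0.19 and Exosc10 from 0.23 to 0.38. Exosc2, Exosc5, Exosc9 and Exosc10 kept their sign under every alternative run; Exosc5 was not tested at a minimum of 5 FPKM. The cause of these shifts was not tested.

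Rnu11, at -1.50 (adjusted p = 0.118), passed after quantile normalization (-1.54), with the set as a term (-1.65), in the first set alone (-2.02), with rescaling and the set (-1.76) and without mutant 4 (-1.68), with a range of -1.70 to -1.31 when 1 library was left out. The replicate numbers were not taken to pair the libraries, since the labels give them no shared litter or day and not every pair correlated above 0.1: same-numbered deviations correlated at -0.107 to 0.521, 3 of 5 pairs above 0.1, and 5 of the 10 libraries correlated best with their own number, so a shared source is not excluded. With the replicate number as a block 14 genes and 0 members were called (Exosc10 log2 difference 0.28, adjusted p = 0.473). Depth limits the low genes most, Exosc5 among the members.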
